A study of Mus musculus with 18 samples.

Results

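Spinal dorsal horn of mice with bone cancer was compared with that of sham-operated mice by RNA sequencing, across all genes of the deposited table. The 6 libraries are those whose labels name the dorsal horn and either sham or cancer, 3 per group, out of 18 in the series. Both groups were wild type (genotype WT) and, per the series' design text, both received control IgG, an antibody without a defined target. Sham mice are here called sham 1 to 3 and tumour-bearing mice cancer 1 to 3. A further group of 3 dorsal horn libraries, from cancer mice given the PD-1 antibody nivolumab, was in the model too, where it shared in the estimate of spread and in the expression filter (13370 genes were tested without it), and its levels are given where they help to read a value. The labels used here give no strain, sex, age, tumour line, bone or day of collection, so what kind of bone cancer model this was is not stated. They also do not say whether the 3 libraries of a group came from separate mice, so each p-value reflects the spread among libraries, which may be technical.

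The dorsal horn is the sensory side of the spinal grey matter, where fibres of the sensory ganglia end on excitatory (glutamate) and inhibitory (GABA and glycine) interneurons. Tumour growth in bone is known to sensitise this circuit, and immediate early genes, opioid peptides and glial genes are often followed there as signs of it. Oligodendrocytes wrap the cord's axons in myelin, whose proteins are encoded by Mbp, Mobp and Mal among others, and blood vessels carry red cells whose haemoglobin messages remain in tissue that was not cleared of blood.

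Of 15193 genes in the table, 13609 passed the expression filter, and 44 of them (0.323%) differed between cancer and sham at an adjusted p of 0.05 in edgeR's quasi-likelihood test (Benjamini-Hochberg over all genes tested). Messages for haemoglobin and for myelin were lower in cancer, the neuropeptide gene Trh and the Toll-like receptor adaptor gene Wdfy1 were higher, and the DNA sensor gene Aim2 was lower. There were 13 genes higher in cancer (0.0955% of those tested) and 31 lower (0.228%). A change of at least 2-fold was reached by 12, of which 7 were higher and 5 lower. For all 44 the cancer and sham libraries did not overlap, against 16.8% of all genes tested. The 44 were chosen by their difference in these same libraries, so this is no separate check. The median log2 fold change of all genes was 0.01, and 1783 genes (13.1%) had an unadjusted p under 0.05.

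**Figure D1:**
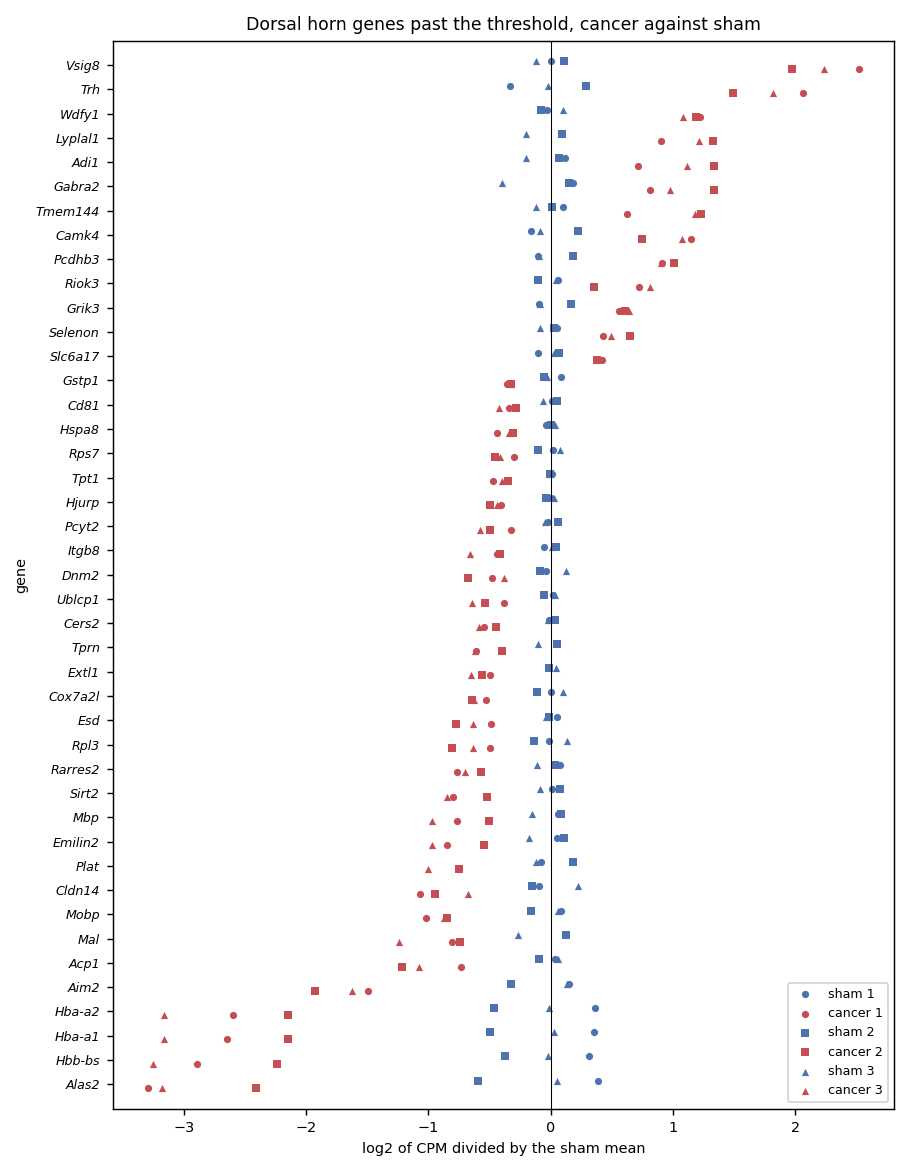
The plot holds 43 of the 44 genes past the threshold in the dorsal horn (vertical axis, ordered by fold change), and each is shown in the 6 libraries as log2 of its CPM (counts scaled to library size with TMM factors) divided by the sham mean (horizontal axis). Blue symbols are sham and red symbols cancer, with circles, squares and triangles for libraries 1, 2 and 3. The 3 red symbols of each gene lie on 1 side of its 3 blue ones, farthest for Alas2 and the haemoglobin genes on the left and for Vsig8 and Trh on the right.

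The number of calls depended on the libraries and the fit. Wdfy1 and Mobp were the only genes past the threshold in all 19 alternative settings. Leaving out sham 1 left 2 calls, as did leaving out nivolumab 1 or fitting the 2 groups alone, whereas leaving out cancer 1 gave 125. Over the 44 genes and 19 settings, 506 of 836 values kept their call, 330 lost it and 0 changed direction. Each of the 44 kept its direction with an unadjusted p under 0.05 in every setting. Every setting draws on the libraries by which the 44 were chosen, so neither is a separate check.

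**Figure D2:**
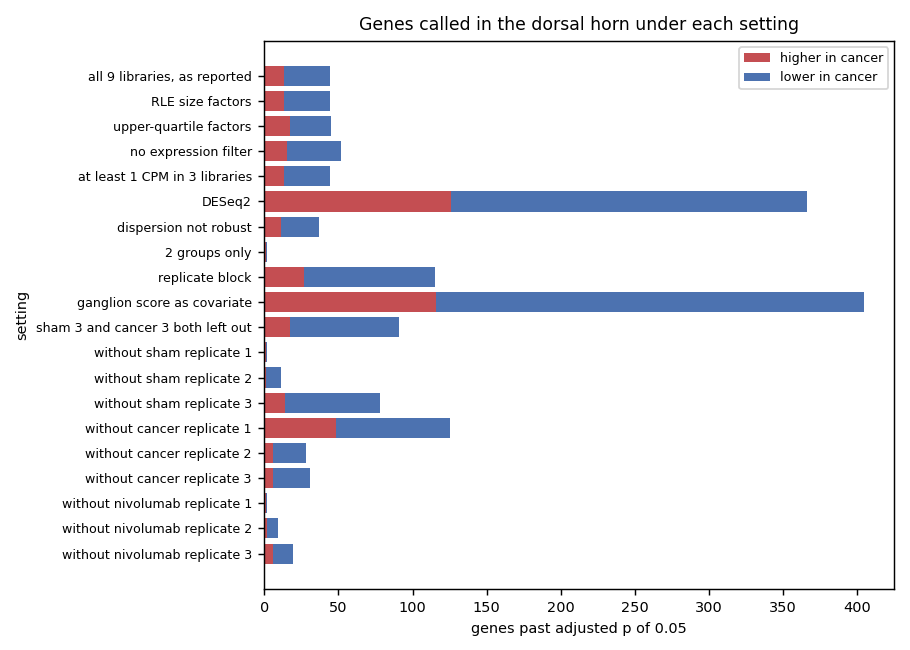
Number of genes past an adjusted p of 0.05 (horizontal axis) under the reported analysis (top bar, 44 genes) and each of 19 alternatives (vertical axis), split into genes higher (red) and lower (blue) in cancer. Genes lower in cancer are as many as or more than genes higher in cancer in every bar, and the totals run from 2 to 405.

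The libraries of each group were not alike in the tissue they held. Sham 3 and cancer 3 carried transcripts of sensory ganglion neurons that the other 4 libraries nearly lacked. Scn10a, a sodium channel of nociceptors, was at 0, 0.0788 and 89.4 CPM in sham 1 to 3 and at 0.105, 0.114 and 102 CPM in cancer 1 to 3. Mrgprd, a receptor of non-peptidergic nociceptors, was at 0 in all 4 of the other libraries, 9.21 CPM in sham 3 and 11.8 CPM in cancer 3. Both groups thus held 1 such library, and none of the ganglion genes tested was called by edgeR, neither the 23 that passed the filter (1 at an unadjusted p under 0.05, 0 with DESeq2) nor the 16 that passed it without the nivolumab libraries. The nivolumab libraries held more, with 307, 205 and 400 CPM of Scn10a. For this reason differences are also given separately for libraries 1 and 2 and for library 3. All 44 called genes had the same direction in both, which follows from their groups not overlapping and is no separate check.

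Markers of the cord itself were present in each of the 6 libraries. Slc6a5, the glycine transporter of inhibitory neurons, was at 467, 495 and 450 CPM in sham and 548, 611 and 509 CPM in cancer, and Slc17a6, the vesicular glutamate transporter of excitatory cord neurons, lay between 172 and 219 CPM. Lbx1, a transcription factor of dorsal horn neurons, lay between 8.75 and 14.1 CPM. Chat, which marks cholinergic neurons including motor neurons of the ventral horn, was also present, at 34.9 to 51.2 CPM. The forebrain gene Emx1 was at most 0.0758 CPM. Skeletal muscle messages came and went without regard to group: Ckm, muscle creatine kinase, was at 3.37, 0.158 and 16.4 CPM in sham and 0.279, 33.4 and 0.177 CPM in cancer, and no muscle gene was called. Total counts per library were 21855085 to 28021668, where 3 counts correspond to 0.105 to 0.132 CPM.

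**Figure D3:**
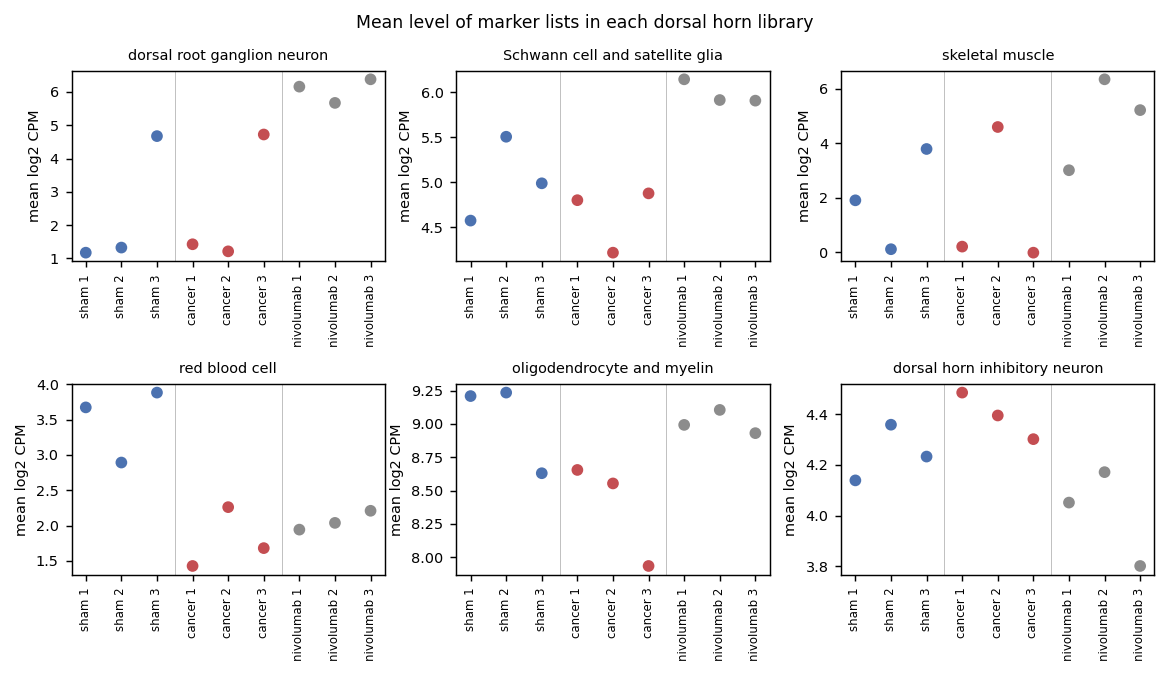
Mean log2 CPM (vertical axes) of the tested members of 6 marker lists in each of the 9 dorsal horn libraries (horizontal axes), with sham in blue, cancer in red and nivolumab in grey. Ganglion markers stand out in sham 3, cancer 3 and all nivolumab libraries, red blood cell markers are lower in each cancer library than in each sham library, and muscle markers vary within every group.

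Myelin messages were lower in cancer. All 20 oligodendrocyte and myelin genes tested had a negative log2 fold change, with a median of -0.58 against 0.01 for all genes, and 3 passed the test, Mobp, Mal and Mbp. In 7 of the 20 (35%) every cancer library was below every sham library, against 8.35% of all genes. In bulk tissue fewer cells of a type and less RNA per cell cannot be told apart. The median was -0.62 in libraries 1 and 2 and -0.56 in library 3.

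Mobp, which encodes a small basic protein of the compact myelin sheath, was measured at 9521, 8035 and 9364 CPM in sham and 4432, 4972 and 4907 CPM in cancer. The lowest sham library stood well above the highest cancer library, and the nivolumab libraries lay between them at 5462, 5837 and 6044 CPM. The log2 fold change was -0.91 (SE 0.08, adjusted p = 0.00352 in edgeR's test). Mbp, the main basic protein of myelin and among the most abundant messages of the cord, fell from 31885, 32462 and 27636 CPM to 18043, 21583 and 15622 CPM (-0.74, SE 0.12, adjusted p = 0.0356). Mal, a lipid-raft protein of the sheath, had 1448, 1455 and 1112 CPM in sham and 765, 801 and 568 CPM in cancer (-0.91, SE 0.14, adjusted p = 0.0423). In both genes library 3, with its ganglion tissue, was the lowest of its group.

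Other sheath genes had similar differences and did not pass. Tspan2, a tetraspanin of the sheath, was at 565, 570 and 493 CPM in sham and 326, 346 and 212 CPM in cancer (log2 fold change -0.88, SE 0.16, adjusted p = 0.07 in edgeR's test). Its groups did not overlap, and library 3 was the lowest of each. With sham 3 and cancer 3 both left out, 9 of the 20 passed, all lower, among them Cldn11, Mog, Mag, Cnp and Tspan2 besides Mobp, Mbp and Mal. With the ganglion score as a covariate 12 passed, and in the fit of the 2 groups alone 1 did.

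Schwann cells of nerve roots also make Mbp and Mal. Prx, which encodes periaxin of myelinating Schwann cells, was at 15.7, 68.5 and 46.2 CPM in sham and 37.1, 10.2 and 51.7 CPM in cancer, so its groups overlapped. Of 17 Schwann and satellite cell genes tested, 3 (17.6%) were lower without overlap, against 8.35% of all genes: Mbp itself, Erbb3 and Pmp2. Pmp2 was at 1.89, 5.32 and 0.758 CPM in sham and 0.559, 0.647 and 0 CPM in cancer. Its adjusted p was 0.288 in edgeR's test. The list median was -0.28, at -0.50 in libraries 1 and 2 and 0.02 in library 3, and 4 genes had an unadjusted p under 0.05. The mean log2 CPM of the 17 was 4.57 to 5.5 in sham and 4.22 to 4.88 in cancer. The part of root tissue in the myelin values was not tested.

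Genes of earlier stages of the oligodendrocyte line gave 0 calls. Of 10 oligodendrocyte transcription factors 0 were called by edgeR or DESeq2 (3 at an unadjusted p under 0.05) and 9 were negative, with a median of -0.22. Tcf7l2 had the smallest p, at 8.38, 7.92 and 6.25 CPM in sham and 5.48, 6.05 and 4.90 in cancer. Of 13 genes of precursors and newly formed oligodendrocytes 0 were called by edgeR, 4 at an unadjusted p under 0.05 and 2 by DESeq2 (median -0.23). In 4 of the 13 (30.8%) cancer was below sham without overlap, against 8.35% of all genes. Bcas1, a marker of cells that are starting to make myelin, was at 1182, 1103 and 850 CPM against 718, 746 and 553 CPM, with an adjusted p of 0.126 in edgeR's test.

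Lipid synthesis, on which myelin draws heavily, gave mostly negative differences and few calls. Of 23 cholesterol synthesis genes 22 were negative (median -0.26), 5 (21.7%) were lower without overlap, against 8.35% of all genes, and 0 passed in edgeR, against 7 at an unadjusted p under 0.05 and 3 with DESeq2. Hsd17b7, an enzyme late in the pathway, was at 45.1, 46.4 and 40.6 CPM in sham and 32.3, 29.3 and 31.2 in cancer (adjusted p = 0.085 in edgeR's test). Outside the list, Cers2, which makes the very long-chain ceramides of myelin lipids, fell from 263, 273 and 261 CPM to 182, 195 and 177 CPM (log2 fold change -0.52, SE 0.06, adjusted p = 0.0105). Its groups were separated by more than the spread within either. Pcyt2, of phosphatidylethanolamine synthesis, fell by 0.46 on the log2 scale, and Sirt2, a deacetylase abundant in oligodendrocytes, fell by 0.71, from 495, 518 and 464 CPM to 283, 344 and 273 CPM.

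The window before the transcription start of Mobp is shown because Mobp was the myelin gene that passed in every setting. Capitals mark each match to ACAAAG, the core letters bound by SOX-family factors such as SOX10 of oligodendrocytes, or to its reverse complement. The motif was chosen after the values were seen. The window holds 250 bases (RefSeq, GRCm38.p6, plus strand, chr9:120149492-120149741) and 6 matches, and it was the only 1 of 32851 windows with that many. At least 1 match was present in 16.5% of all windows and in 7 of the 16 myelin genes with a window. The window of Mal, searched for the same letters, holds none. A match describes letters and says nothing of binding.
Mobp: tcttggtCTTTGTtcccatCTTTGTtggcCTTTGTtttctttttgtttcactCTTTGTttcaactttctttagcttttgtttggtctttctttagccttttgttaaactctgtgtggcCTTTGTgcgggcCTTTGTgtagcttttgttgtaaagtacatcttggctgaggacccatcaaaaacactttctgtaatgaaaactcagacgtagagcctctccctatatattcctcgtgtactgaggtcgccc

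Red blood cell messages had the largest falls. Of 9 tested red cell genes 4 passed, all lower, 8 were negative and the median log2 fold change was -2.59. In 7 of the 9 (77.8%) every cancer library was below every sham library, against 8.35% of all genes. Alas2, the erythroid enzyme that starts haem synthesis, was at 27.7, 14.0 and 21.9 CPM in sham and 2.16, 4 and 2.34 CPM in cancer (log2 fold change -2.90, SE 0.33, adjusted p = 0.0183 in edgeR's test). The sham libraries themselves were spread widely, and the lowest still exceeded the highest cancer library.

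Both chains of haemoglobin followed. Hbb-bs, adult beta globin, was at 494, 306 and 391 CPM in sham and 53.5, 84.1 and 41.7 in cancer (-2.73, SE 0.30). Hba-a1 and Hba-a2, the near-identical alpha globin genes among which the counting may have divided reads, had log2 fold changes of -2.59 and -2.57. In all 4 genes sham 2 was the lowest sham library and cancer 2 the highest cancer library. The nivolumab libraries were near the cancer level, with Alas2 at 3.16, 3.87 and 5.33 CPM.

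Other red cell genes were measured at low levels. Slc4a1, the anion exchanger of the red cell membrane, was at 6.95, 1.77 and 8.72 CPM in sham and 0.175, 1.14 and 0.221 in cancer and did not pass (adjusted p = 0.12 in edgeR's test). Fech and Bpgm, which other cells express too, had log2 fold changes of -0.20 and -0.34. None of the 4 calls held when sham 3 and cancer 3 were left out, with the 2 groups alone, or without sham 1, nivolumab 1 or nivolumab 2. Without nivolumab 3, and with the replicate number as a block, 1 held, that of Alas2. The fold changes stayed, with that of Alas2 between -3.22 and -2.66 over all settings. Endothelial genes had a median of -0.31 with 0 of 13 called, at -0.60 in libraries 1 and 2 and 0.20 in library 3. How much blood the tissue held is not given in the labels, and its part in these values was not tested.

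The windows of 3 of these genes are shown because their messages fell together. Each holds the 250 bases before the RefSeq start (GRCm38.p6), at chrX:150547167-150547416 on the plus strand for Alas2, chr7:103827929-103828178 on the minus strand for Hbb-bs and chr11:32283422-32283671 on the plus strand for Hba-a1. Capitals mark matches on either strand to AGATAA (bound by GATA factors), CCACACCC (bound by KLF factors), CCAAT and TATAA, all chosen after the values were seen. Of all 32851 windows, 10% hold AGATAA, 3.2% CCACACCC, 33.8% CCAAT and 22.8% TATAA.
Alas2: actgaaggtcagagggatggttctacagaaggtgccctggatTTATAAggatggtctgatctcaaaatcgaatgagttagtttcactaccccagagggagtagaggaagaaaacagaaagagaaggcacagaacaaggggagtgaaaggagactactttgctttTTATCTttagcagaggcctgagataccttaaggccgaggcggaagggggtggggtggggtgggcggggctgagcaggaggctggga
Hbb-bs: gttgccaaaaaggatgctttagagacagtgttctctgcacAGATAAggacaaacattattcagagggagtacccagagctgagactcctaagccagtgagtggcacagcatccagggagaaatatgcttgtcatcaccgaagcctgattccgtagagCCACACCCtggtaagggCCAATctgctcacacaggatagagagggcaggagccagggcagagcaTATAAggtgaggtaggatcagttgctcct
Hba-a1: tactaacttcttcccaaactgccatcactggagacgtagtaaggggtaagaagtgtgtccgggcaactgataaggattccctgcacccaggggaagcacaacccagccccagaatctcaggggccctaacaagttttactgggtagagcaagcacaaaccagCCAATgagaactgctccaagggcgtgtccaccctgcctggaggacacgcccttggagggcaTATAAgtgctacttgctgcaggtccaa

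AGATAA was found in the windows of Alas2 and Hbb-bs, where that of Alas2 lies 86 bases before the start and reads TTATCT. In Alas2 the capitals TTATAA are 2 overlapping matches to TATAA, 1 on each strand. Hbb-bs holds each of the 4 motifs. Hba-a1 holds CCAAT and TATAA in a window that shares a run of 247 bases with that of Hba-a2. Only the exact letters AGATAA were searched, so variants such as the TGATAA of the Hba-a1 window are not marked.

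Among the genes of the immune lists only 2 passed in edgeR's test, with large and opposite changes. Wdfy1, whose protein recruits the adaptor TRIF to Toll-like receptors 3 and 4, had the smallest p of all genes. It was at 28.3, 27.4 and 31.0 CPM in sham and 67.1, 65.6 and 61.2 CPM in cancer (log2 fold change 1.16, SE 0.07, adjusted p = 0.000231 in edgeR's test). The gap between the groups was far wider than the spread within either, and the nivolumab libraries were at 27.0, 27.4 and 27.6 CPM, close to sham. Wdfy1 is also on the list of genes chosen as a check of strain, described with Gabra2. The gene lies at chr1:79702262-79776143 on the minus strand (GENCODE M21 annotation of GRCm38).

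Aim2, which encodes a sensor of cytosolic DNA that assembles an inflammasome, was at 11.9, 8.59 and 11.7 CPM in sham and 3.81, 2.82 and 3.49 CPM in cancer (-1.67, SE 0.18, adjusted p = 0.0105). The nivolumab libraries lay between the groups at 6.62, 6.85 and 6.29 CPM. Of the 21 Toll-like receptor and inflammasome genes tested, these 2 were the only ones called, and the median of the list was 0.10. Il1b, a cytokine released through inflammasomes, was at 0, 0.237 and 0.417 CPM in sham and 0.454, 0.419 and 1.10 CPM in cancer. These levels are low, the groups did not overlap, and Il1b did not pass (adjusted p = 0.483 in edgeR's test).

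The microglia, reactive microglia, astrocyte, reactive astrocyte, complement and interferon response lists held 0 genes called by edgeR. Of 13 ependymal genes 1 was called, Rarres2, which was lower. Of 21 microglial genes 20 were negative (median -0.27), with 2 at an unadjusted p under 0.05 and 2 passing with DESeq2. C1qb, a subunit of the complement component that microglia secrete, was at 41.6, 41.0 and 40.9 CPM in sham and 25.5, 34.1 and 26.8 CPM in cancer, and did not pass (adjusted p = 0.0857 in edgeR's test). The median of the microglial list was -0.33 in libraries 1 and 2 and -0.09 in library 3. Of 17 reactive microglia genes 8 were positive and 9 negative, and of 23 reactive astrocyte genes 12 and 11. The 15 astrocyte genes had a median of -0.21, with 5 at an unadjusted p under 0.05 and 4 lower with DESeq2. Fgfr3, a growth factor receptor of these cells, was at 362, 318 and 334 CPM against 291, 286 and 288 CPM (adjusted p = 0.136). Of 28 interferon response genes 24 were positive with a median of 0.13, 4 had an unadjusted p under 0.05, and DESeq2 called 1 higher and 1 lower. Without overlap, 1 (3.57%) was higher and 2 (7.14%) were lower, shares below those of all genes (8.46% and 8.35%). The 2 lower ones were Rsad2 (4.69, 2.40 and 3.37 CPM in sham against 1.22, 1.48 and 2.03) and Mx2. Of 13 class I antigen presentation genes 0 were called by edgeR, and 10 were positive (median 0.19). Without overlap 5 (38.5%) were higher and 1 (7.69%) lower, against 8.46% and 8.35% of all genes. In that list 5 had an unadjusted p under 0.05, and DESeq2 called 1, which was lower. Of 16 complement genes 12 were negative (median -0.33), 3 had an unadjusted p under 0.05, and DESeq2 called 1 higher and 2 lower.

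Neuronal genes supplied several of the calls higher in cancer. Trh encodes the precursor of thyrotropin-releasing hormone, a peptide carried by a subset of excitatory dorsal horn neurons. It was at 2.38, 3.67 and 2.96 CPM in sham and 12.5, 8.45 and 10.6 CPM in cancer, a 3.50-fold difference (log2 fold change 1.81, SE 0.24, adjusted p = 0.0248 in edgeR's test). The lowest cancer library had over 2 times the level of the highest sham library, and the nivolumab libraries were at 2.51, 3.26 and 2.00 CPM. The rise was 1.77 in libraries 1 and 2 and 1.82 in library 3. Trhr, its receptor, was at 13.7, 14.3 and 13.4 CPM in sham and 12.8, 14.3 and 12.6 CPM in cancer. Trh lies at chr6:92242061-92244650 on the minus strand.

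The window before Trh is shown since it was the neuropeptide gene that passed. It covers chr6:92244651-92244900 (RefSeq, GRCm38.p6, minus strand), and capitals mark TATAA and the reverse complement of TGACG, the short form of the site for cyclic AMP-responsive factors, which was chosen after the values were seen. TGACG was present on either strand in 17.8% of all windows. The match in Trh lies 96 bases before the start, and the whole site TGACGTCA, held by 1.5% of windows, was not found.
Trh: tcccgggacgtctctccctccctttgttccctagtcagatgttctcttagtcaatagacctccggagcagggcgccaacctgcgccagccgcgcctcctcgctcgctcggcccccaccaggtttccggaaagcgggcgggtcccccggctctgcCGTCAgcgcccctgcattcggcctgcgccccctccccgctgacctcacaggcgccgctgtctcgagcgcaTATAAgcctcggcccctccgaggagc

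Of the 36 neuropeptide and receptor genes tested, Trh was the only 1 called, 29 were positive and the median was 0.21. Tac1, which encodes substance P, was at 11.4, 15 and 21.1 CPM in sham and 25.8, 23.4 and 30.1 CPM in cancer, with no overlap and an adjusted p of 0.214 in edgeR's test. Sst, somatostatin, was at 49.6, 62.6 and 58.6 CPM against 83.8, 92.4 and 68.7 CPM (adjusted p = 0.246). Of 22 excitatory neuron genes 18 were positive (median 0.14), at 0.23 in libraries 1 and 2 and near 0 in library 3.

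Inhibitory neuron genes had small positive differences, and 0 passed with edgeR or DESeq2 (7 at an unadjusted p under 0.05). Of 21 tested 17 were positive, the median was 0.21, and in 8 every cancer library exceeded every sham library, against 8.46% of all genes. Slc6a5 had a log2 fold change of 0.24 (adjusted p = 0.202). Gad1, which makes GABA, was at 151, 173 and 158 CPM in sham and 217, 198 and 187 CPM in cancer, and Gad2 at 89.7, 108 and 105 CPM against 135, 124 and 120 CPM. The 8 opioid genes were all positive (median 0.30), with 0 called by edgeR, 2 at an unadjusted p under 0.05 and 1 with DESeq2. Oprk1, the kappa receptor, had the smallest p, at 10.1, 12 and 10.7 CPM against 15.3, 18.8 and 14.2 CPM (adjusted p = 0.126).

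Receptors and synaptic proteins gave 4 more calls. Gabra2, the alpha-2 subunit of the GABA-A receptor, was at 65.6, 64.1 and 44 CPM in sham and 102, 146 and 114 CPM in cancer (log2 fold change 1.06, SE 0.17, adjusted p = 0.05 in edgeR's test). The groups did not overlap, and the call was just inside the threshold of 0.05. Of 23 GABA and glycine receptor genes it was the only 1 called (median 0.11). Grik3, a kainate receptor subunit, was at 43.2, 51.7 and 43.2 CPM against 67.8, 70.1 and 71.7 CPM (0.60, adjusted p = 0.05) and was the only call among 24 glutamate receptor genes. Camk4, a nuclear calcium/calmodulin-dependent kinase, was at 6.95, 9.03 and 7.28 CPM against 17.1, 13.0 and 16.3 CPM (1.00, SE 0.15, adjusted p = 0.0342). Slc6a17, an amino acid transporter of synaptic vesicles, was higher by 0.39.

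Gabra2 is known to differ in expression between C57BL/6 substrains. It was on a list of genes chosen as a check of strain, of which 5 were tested and 2 were called, Gabra2 and Wdfy1, both higher. The other 3 had overlapping groups. Nnt, a mitochondrial enzyme, was at 42.4, 39.3 and 35.5 CPM in sham and 40.4, 38.2 and 34 CPM in cancer. Entpd4, a nucleotide-hydrolysing enzyme, was at 110, 106 and 120 CPM against 116, 76.2 and 72.7 CPM, and Ide, the insulin-degrading enzyme, had a log2 fold change of -0.11. The strain and substrain of the mice are not given in the labels, and their part in the Gabra2 and Wdfy1 values was not tested.

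Of 18 clustered protocadherins, adhesion molecules that give neurons distinct surfaces, Pcdhb3 passed, at 4.23, 5.16 and 4.24 CPM in sham and 8.55, 9.13 and 8.48 CPM in cancer (log2 fold change 0.94, SE 0.14, adjusted p = 0.0315 in edgeR's test). Its relatives Pcdhb5 and Pcdhb7 had adjusted p-values of 0.0543 and 0.0599. In 7 of the 18 (38.9%) cancer was above sham without overlap and in 1, Pcdhb12, below it, against 8.46% and 8.35% of all genes. These genes have closely related sequences, among which reads can be divided.

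Immediate early genes, which neurons switch on within minutes of firing, were mostly above sham and not called. Of 26 tested 0 passed with edgeR, 9 had an unadjusted p under 0.05 and 3 passed with DESeq2. There were 20 were positive, with a median of 0.35, and 7 (26.9%) were above sham in each cancer library, against 8.46% of all genes. Egr1 was at 21.5, 24.8 and 24.6 CPM in sham and 49.2, 31.3 and 41.0 CPM in cancer (log2 fold change 0.78, adjusted p = 0.126 in edgeR's test). Fos was at 10.8, 12.5 and 8.79 CPM against 27.7, 13.2 and 17.0 CPM (0.85, adjusted p = 0.216), where cancer 2 barely exceeded the highest sham library. The list median was 0.33 in libraries 1 and 2 and 0.40 in library 3. With library 3 of both groups left out Fosl2 passed.

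**Figure D4:**
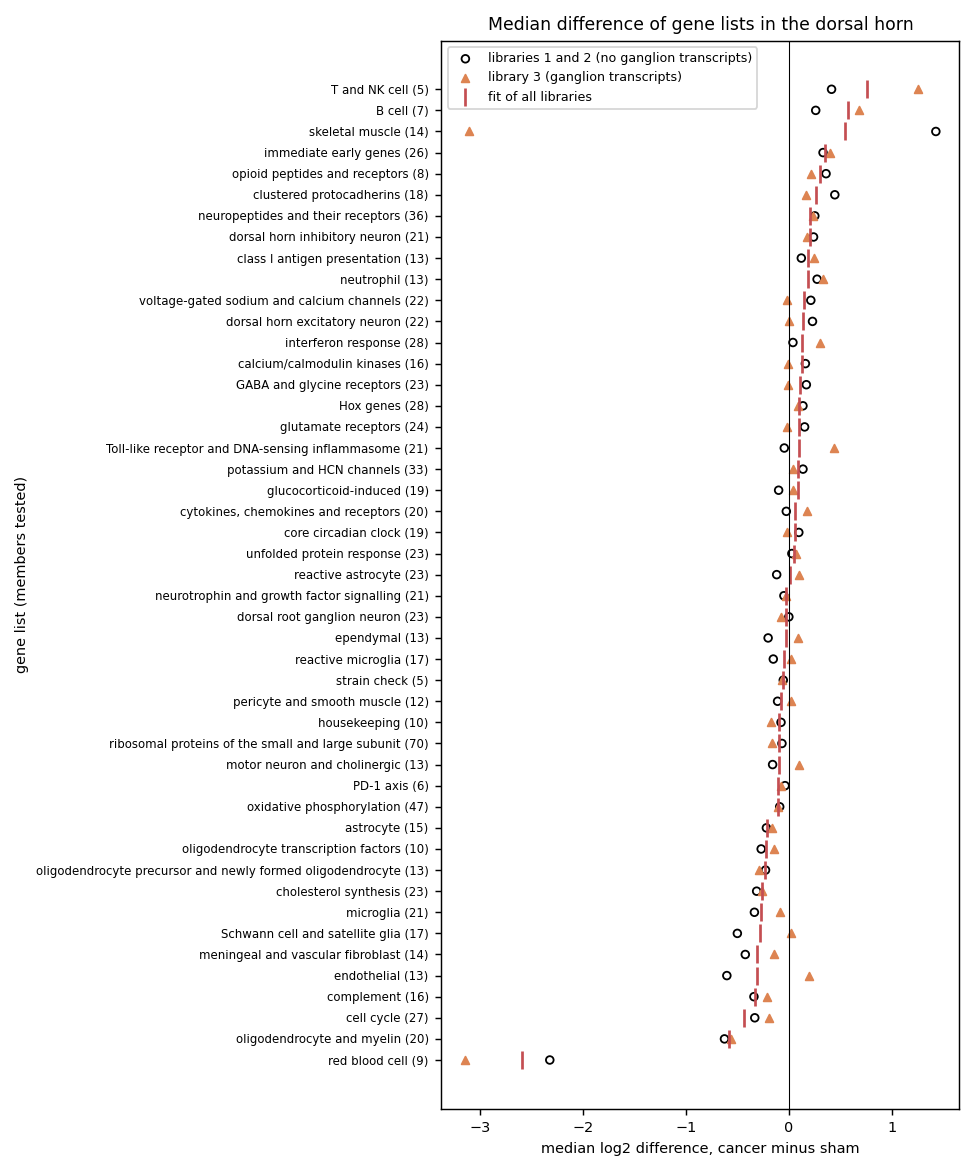
Median log2 difference of the tested members of each gene list (vertical axis, number tested in brackets), cancer minus sham (horizontal axis). Circles are libraries 1 and 2, triangles library 3 and red bars the fit of all libraries. The red blood cell list (-2.59) and the myelin list (-0.58) are the lowest in the fit, and the skeletal muscle list lies on opposite sides of 0 in the 2 splits.

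The rest of the called genes belonged to varied processes. Vsig8, which encodes an immunoglobulin-domain membrane protein, had the largest rise at a low level, from 0.329, 0.355 and 0.303 CPM to 1.89, 1.29 and 1.55 CPM (log2 fold change 2.24, SE 0.34, adjusted p = 0.0342 in edgeR's test). Lyplal1, a lysophospholipase-like enzyme, was at 4.11, 4.14 and 3.37 CPM against 7.23, 9.70 and 8.96 CPM (1.15), and Tmem144, a transmembrane protein, at 15.5, 14.5 and 13.2 CPM against 22.1, 33.6 and 32.6 CPM (1.03). In both genes cancer 1 was the cancer library nearest to sham. Adi1, an enzyme of methionine salvage, rose from 57.3, 55.5 and 45.8 CPM to 86.5, 133 and 114 CPM (1.07). Riok3, a kinase of the RIO family, and Selenon, a selenoprotein of the endoplasmic reticulum, rose by 0.64 and 0.52.

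Acp1, the low-molecular-weight phosphotyrosine phosphatase, fell from 78.5, 71.5 and 79.6 CPM to 45.9, 33.0 and 36.3 CPM (-0.99, SE 0.11, adjusted p = 0.0105). Genes of the extracellular space and cell contacts were among those lower: Cldn14, a claudin (-0.89), Plat, tissue plasminogen activator (-0.83), Emilin2, a matrix glycoprotein (-0.78), Rarres2, the precursor of chemerin (-0.68), and Itgb8, an integrin chain (-0.50). Plat was at 87.9, 105 and 85.2 CPM in sham and 55.1, 55.1 and 46.2 CPM in cancer. The remaining falls were Esd -0.63, Cox7a2l -0.60, Extl1 -0.57, Tprn -0.54, Ublcp1 -0.52, Dnm2 -0.51, Hjurp -0.45, Hspa8 -0.36, Cd81 -0.35 and Gstp1 -0.33, of which Hspa8, a constitutive chaperone, was the most abundant at a mean of 2312 CPM in sham and 1801 CPM in cancer.

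Several called genes were neighbours on a chromosome. Adi1 and Rps7 lie 0.0393 Mb apart on chromosome 12, with Acp1 2.21 Mb from Adi1, and of the 3 only Adi1 rose. Vsig8 and Aim2 lie 0.787 Mb apart on chromosome 1 and changed in opposite directions, as did Selenon and Extl1, 0.154 Mb apart on chromosome 4. Tpt1 and Esd, 1.09 Mb apart on chromosome 14, both fell. The number of such pairs was not compared with that of other gene sets.

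Ribosomal protein and oxidative phosphorylation genes had small negative differences. Of 70 ribosomal protein genes 63 were negative with a median of -0.09, 21 were lower without overlap (30% against 8.35% of all genes), and 2 passed, Rpl3 and Rps7. Rpl3 was at 466, 429 and 518 CPM in sham and 333, 269 and 304 CPM in cancer (log2 fold change -0.64, SE 0.09, adjusted p = 0.0248 in edgeR's test), far from the median of its list. Of 47 oxidative phosphorylation genes 44 were negative (median -0.11), and 22 were lower without overlap (46.8% against 8.35% of all genes). In edgeR 0 passed, against 14 at an unadjusted p under 0.05 and 1 with DESeq2. Ndufs5, of complex I, was closest, at 69.5, 66.6 and 66.8 CPM against 40.8, 22.9 and 23.6 CPM (adjusted p = 0.0526). Many of these genes have processed pseudogenes with which they can share reads. Tpt1, a translationally controlled protein, fell by 0.41, whereas the reference genes Pgk1 and Tbp had log2 fold changes of -0.01 and 0.02.

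Lymphocyte and neutrophil markers gave 0 calls. The filter was passed by 5 of 21 T and NK cell genes, of which 0 were called by edgeR or DESeq2 (2 at an unadjusted p under 0.05). Il7r, a receptor of resting T cells, was at 0.781, 0.749 and 0.493 CPM in sham and 0.908, 3.35 and 2.08 CPM in cancer (adjusted p = 0.183 in edgeR's test). Pdcd1, which encodes PD-1, was at 0 to 0.276 CPM in sham and 0 to 0.489 CPM in cancer, and Cd274, its ligand PD-L1, at 5.71, 4.81 and 5.91 CPM against 6.56, 7.65 and 7.20 CPM. Of 13 neutrophil genes 0 were called by edgeR or DESeq2 and 0 had an unadjusted p under 0.05. S100a9, a calcium-binding protein abundant in neutrophils, was at 20.6, 2.29 and 44.8 CPM in sham and 5.17, 24.9 and 74.2 CPM in cancer, so it varied widely within both groups. Of 7 B cell genes 0 were called by edgeR or DESeq2. Ighm, the IgM heavy chain, was at 78.2, 99.4 and 80.7 CPM in sham and 35.1, 76.2 and 5.43 CPM in cancer.

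The colon of the same groups gave a separate set of libraries. There 0 of 13445 genes (0%) passed in edgeR's test, 1468 (10.9%) had an unadjusted p under 0.05, and the biological coefficient of variation was 0.376 against 0.170 in the dorsal horn. Of the 44 dorsal horn genes 41 were tested in the colon, 26 had the same sign, and 10 had an unadjusted p under 0.05; with DESeq2, 6 of the 41 passed. For the 26 with the same sign, no share over all genes is given here. In 9 of the 41 the colon groups did not overlap, a share close to the 19.3% of all colon genes. All 9 had the direction of the dorsal horn: Wdfy1, Riok3, Rps7, Tpt1, Ublcp1, Cldn14, Cox7a2l, Rpl3 and Acp1.

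Wdfy1 was at 34.4, 25.5 and 37.9 CPM in sham colon and 80.7, 84.3 and 87.7 CPM in cancer colon, a log2 fold change of 1.37 beside 1.16 in the dorsal horn (colon adjusted p = 0.172 in edgeR's test). Acp1 was at 76.5, 73.2 and 83.1 CPM in sham colon against 23.1, 19.4 and 50.6 CPM. Both genes were thus separated by group in each tissue. The called red cell genes did not share this: colon Hbb-bs was at 18.4, 17.7 and 9.38 CPM in sham and 27.8, 12.5 and 8 CPM in cancer. Colon Mbp was at 75.1, 61.2 and 78.9 CPM in sham and 66.4, 48.6 and 48.8 CPM in cancer. Its log2 fold change there was -0.39 and that of Mal 0.93, and the colon groups of both overlapped. Mobp was at 0 in those 6 colon libraries and could not be compared.

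**Figure D5:**
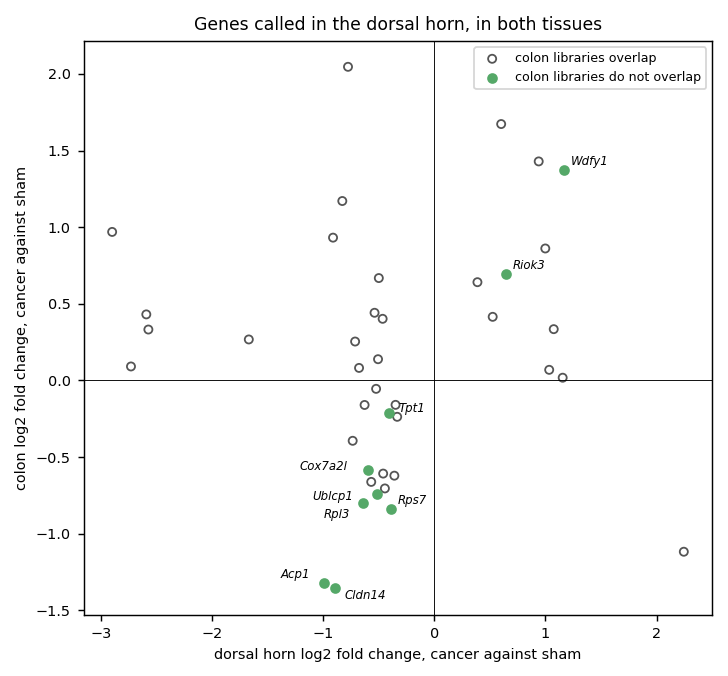
Log2 fold change of cancer against sham in the dorsal horn (horizontal axis) and colon (vertical axis) for the 41 called dorsal horn genes tested in both. Filled green points are the 9 genes whose colon libraries do not overlap between groups, all in the lower left or upper right quadrant. Their share of the 41 is close to that of all colon genes (19.3%).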

How the data were processed

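The authors deposited whole-number counts per gene, 1 table per tissue, without normalisation. Reads came from TRIzol-extracted total RNA made into cDNA libraries, per the labels' protocols. The submitters' processing notes list FastQC (0.11.5), Trimmomatic, HISAT2, StringTie and the build GRCm38. Counter, annotation and strand setting were not given in any source used, so overlapping or antisense genes and near-identical copies may share counts.

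Counts of the 9 dorsal horn libraries were fitted with edgeR 4.0.16 (R 4.3.3; TMM, filterByExpr by group, robust dispersions), contrast cancer minus sham, two-sided, with Benjamini-Hochberg adjustment over 13609 genes. SE is the log2 fold change divided by the root of F. CPM used TMM factors and log2 CPM a prior count of 2. The 9 colon libraries were fitted alike, and the tissues compared by an interaction over 18 libraries. DESeq2 1.42.0 was an alternative. Scripts were tested on simulated data. No 2 libraries of a group agreed within sampling noise. PCR reads are not independent molecules, so floors cover counting error only.

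Genes named were all those past the threshold (the first 8 in each direction with every value) and, per list, members past it or else with the smallest p, plus the defining markers. A few genes that this rule names are not reported here. Chosen after their values were seen were the myelin genes without a call, Fos, Fosl2, Tac1, Sst, Gad1, Gad2, Mx2, Trhr, Il1b, the red cell genes without a call, S100a9, Ighm, Nnt, Entpd4, Ide, Cd274, Pgk1, Tbp, Pcdhb5, Pcdhb7, Pcdhb12 and Mki67. The 48 lists and the members were chosen with earlier results of these data known. Their counts and medians are descriptions.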

Additional observations from a re-analysis of the deposited data

Results flagged for a closer look

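Aim2 differed between the tissues. Its log2 fold change of cancer against sham was -1.67 in the dorsal horn and 0.27 in the colon, a difference of -1.97 in the interaction test of edgeR over 18 libraries (adjusted p = 0.00862). Colon levels were 80.8, 71.4 and 68.3 CPM in sham and 108, 88.7 and 68.8 CPM in cancer, where the groups overlapped. It was the only 1 of the 44 genes called in the dorsal horn for which this test passed.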

How the results depend on the processing

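The 44 calls (13 higher, 31 lower) were 366 with DESeq2 (126 higher, 240 lower), 2 with the 2 groups alone (1 and 1), 405 with a ganglion score in the model (116 and 289) and 91 with sham 3 and cancer 3 left out (17 and 74), of which 24 were among the 44. Leaving out 1 library at a time gave 2 to 125 calls, 1 to 48 higher and 1 to 77 lower. The lowest counts came without sham 1 (2), nivolumab 1 (2), nivolumab 2 (9) and sham 2 (11), and nivolumab 3 gave 19. The highest came without cancer 1 (125) and sham 3 (78). RLE factors gave 44, upper-quartile factors 45 (17 higher, 28 lower), no filter 52, a minimum of 1 CPM 44 and non-robust dispersion 37. The cause of these moves was not tested. No list's median changed sign between TMM, RLE and upper-quartile scaling. Of the 44 genes, 0 passed in the colon in edgeR, 6 with DESeq2, and 0 to 1 with 1 colon library left out (1 without cancer 3).

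With the replicate number as a block, 115 genes passed (27 higher, 88 lower), 41 of them among the 44. The deviations of equally numbered sham and cancer libraries correlated at 0.317, -0.0323 and 0.653 (Pearson, across 11998 genes, which are not independent replicates), and sham 2 correlated best with cancer 1, at 0.583. The labels do not say that a number marks a shared animal or day.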

Other observations

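Just outside the threshold lay Cgref1, Abhd4, Gng12, Elovl1 and Eno1, with adjusted p-values of 0.0517 to 0.0526 in edgeR's test. Elovl1, which elongates very long-chain fatty acids, was at 94.8, 102 and 75.3 CPM in sham and 60.4, 58.4 and 52.2 CPM in cancer. Eno1, an enzyme of glycolysis, was at 612, 596 and 505 CPM against 420, 427 and 445 CPM. Cgref1 was higher in cancer (log2 fold change 0.65), and the other 4 were lower.

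Proliferation genes were at low levels. Of 27 cell cycle genes 19 were negative with a median of -0.44 and 0 were called by edgeR, against 6 at an unadjusted p under 0.05 and 1 with DESeq2. Mki67, which marks dividing cells, was at 3.78, 2.52 and 7.66 CPM in sham and 0.873, 2.36 and 1.72 CPM in cancer (adjusted p = 0.211 in edgeR's test). Zbtb16, a glucocorticoid-induced transcription factor, was at 73.0, 72.6 and 73.0 CPM against 115, 122 and 88.8 CPM (adjusted p = 0.218), while its list of 19 had a median of 0.09. Fbln1, a matrix gene of meningeal fibroblasts, was at 18, 24.3 and 18.6 CPM against 14.2, 12.8 and 12.7 CPM (adjusted p = 0.0905). Hcn3, a pacemaker channel, was at 11.5, 12.6 and 13.3 CPM against 15.7, 17.7 and 15.7 CPM (adjusted p = 0.149).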
